A study of Mus musculus with 9 samples.

Results

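The axon guidance ligands and receptors are the secreted and membrane-bound cues, and their receptors, of the Slit and Robo, netrin and Unc5, semaphorin, plexin and neuropilin, and ephrin and Eph families. Members were taken by gene symbol from a table of 47937 genes quantified in mouse embryonic fibroblasts (MEFs). The symbol rule uses no measured value, but the families were picked with earlier results of these data known, so their counts are not those of an unselected list. The symbol rule took 68 genes, of which 51 had enough counts to be tested and 4 (Epha5, Robo4, Unc5d and Sema6d) had 0 counts in every library. One of the 68, Unc50, which encodes a Golgi protein, matched the rule by spelling only and is not an Unc5 netrin receptor.

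Total RNA was sequenced in 9 MEF libraries, 3 of each of 3 genotypes. The labels name them wild type (WT), Suv39h1/Suv39h2 KO (S1S2) and G9a/Glp KO (G9Gl, the products of Ehmt2 and Ehmt1), refer to the study for cell growth, and name no clone and no tamoxifen treatment. What follows on the lines comes from the study's methods and is assumed to hold for these libraries, which the methods do not list one by one. There WT denotes E1c MEFs, a clone with a conditional allele of Eset1 (Setdb1) and a tamoxifen-inducible Cre that was selected for high Cre activity. Both mutants were made from E1c cells with CRISPR/Cas9, each as a single clone chosen for lack of the target proteins, so that all 9 libraries would share the floxed Eset1 allele, and a CreERT2 construct with puromycin resistance was re-introduced after gene disruption. Genotype and clone then cannot be told apart. The methods describe the 3 replicates of a line as biological, but neither they nor the labels say whether these were separate cultures or clones, so p-values measure the spread between these libraries. Suv39h1 and Suv39h2 are the enzymes of H3K9 trimethylation in heterochromatin, and G9a and Glp are those of mono- and dimethylation.

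Guidance cues steer growing axons by attraction or repulsion, and the same molecules act on the adhesion and movement of mesenchymal, endothelial and neural crest cells. Slits are secreted repellents that bind Robo receptors. Netrins attract through Dcc and repel through Unc5 receptors. Class 3 semaphorins are secreted and mostly bind a neuropilin that is complexed with an A-type plexin, whereas the other vertebrate semaphorins are membrane-bound and bind plexins directly. Ephrins sit on the cell membrane, by a lipid anchor in ephrin-A or a transmembrane segment in ephrin-B, and activate Eph receptor tyrosine kinases on the neighbouring cell. Fibroblasts of the embryo are known to express ligands and receptors of each of these families.

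Promoter sequences are shown first for the 4 well-counted genes that differed most between the mutants while moving in opposite directions against WT and had a single start in the table used. They are RefSeq windows on GRCm38.p6, 300 bases long and ending just past the annotated start, written 5′ to 3′ on the strand of the gene, with every CG dinucleotide in capitals. Unc5c lies at chr3:141465314-141465613, forward strand, Slit3 at chr11:35121206-35121505, forward strand, Sema5a at chr15:32244563-32244862, forward strand and Efnb2 at chr8:8661193-8661492, reverse strand.
Unc5c: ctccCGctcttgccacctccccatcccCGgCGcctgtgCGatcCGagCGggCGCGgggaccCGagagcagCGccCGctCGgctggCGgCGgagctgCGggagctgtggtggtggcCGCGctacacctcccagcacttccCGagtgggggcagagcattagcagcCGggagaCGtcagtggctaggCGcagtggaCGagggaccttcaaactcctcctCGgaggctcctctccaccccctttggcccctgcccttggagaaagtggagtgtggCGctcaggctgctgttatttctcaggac
Slit3: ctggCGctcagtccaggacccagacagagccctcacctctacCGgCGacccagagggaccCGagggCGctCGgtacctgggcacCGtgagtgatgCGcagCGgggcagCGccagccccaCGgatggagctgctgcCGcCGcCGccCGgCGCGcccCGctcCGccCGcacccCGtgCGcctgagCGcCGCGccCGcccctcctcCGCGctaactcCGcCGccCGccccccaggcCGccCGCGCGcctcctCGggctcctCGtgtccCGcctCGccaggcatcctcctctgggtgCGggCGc
Sema5a: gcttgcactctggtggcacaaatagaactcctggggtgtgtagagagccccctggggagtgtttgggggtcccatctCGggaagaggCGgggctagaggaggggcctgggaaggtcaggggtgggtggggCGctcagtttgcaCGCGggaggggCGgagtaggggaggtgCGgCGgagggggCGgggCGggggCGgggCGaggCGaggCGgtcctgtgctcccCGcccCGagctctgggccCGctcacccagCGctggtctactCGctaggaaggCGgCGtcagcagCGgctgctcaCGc
Efnb2: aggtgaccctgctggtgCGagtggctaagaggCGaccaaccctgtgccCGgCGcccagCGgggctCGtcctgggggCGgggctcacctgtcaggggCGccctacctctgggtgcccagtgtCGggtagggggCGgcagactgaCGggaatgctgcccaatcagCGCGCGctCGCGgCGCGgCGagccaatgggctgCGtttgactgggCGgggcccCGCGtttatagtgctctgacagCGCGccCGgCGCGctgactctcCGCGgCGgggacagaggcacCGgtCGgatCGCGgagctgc

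These windows hold 24 CG dinucleotides in Unc5c, 41 in Slit3, 23 in Sema5a and 35 in Efnb2. The RefSeq start lies 348 bases inside the GENCODE gene for Unc5c, 232 bases inside it for Slit3, 3 bases inside it for Sema5a and at the same base for Efnb2. In all, 59 of the 68 genes had entries, with 75 windows. Their median was 20 CG dinucleotides per window, with a range of 2 to 56, against a median of 7 over all 32851 windows of the table. The 8 genes that moved in opposite directions in the mutants had 10 windows with a median of 23.5, and the range was 5 to 41. The members called in at least 1 comparison had a median of 17.5 over 26 windows and the tested members that were never called 21.5 over 32 windows. Both orientations were searched for 3 motifs. A GC box (GGGCGG), whose CG is also counted above, was present in 70.7% of member windows and 35.7% of all windows. The TATA box letters TATAAA were present in 2.67% of member windows and 13.6% of all windows, and the E-box letters CACGTG in 6.67% and 7.15%. The Slit3, Sema5a and Efnb2 windows hold a GC box, the Efnb2 window also holds the TATA box letters, and none of the 3 motifs occurs in the Unc5c window. A match is a description of letters, and neither binding nor methylation of these windows was analysed here.

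Libraries held 21319778 to 32157623 gene counts, with the smallest totals in S1S2, and the members took 0.248 to 0.283% of them. Levels are given as CPM, counts scaled to a common library size with TMM factors, as mean ± SD with n = 3, and levels per exon length as RPKM. A gene was called when edgeR's quasi-likelihood test gave an adjusted p (Benjamini-Hochberg, over 15540 genes) of 0.01 or less and the fold change was 2 or more. All adjusted p-values below come from this test. Among the targeted genes, Suv39h1 fell from 108 ± 4.59 CPM in WT to 41.9 ± 3.14 in S1S2, where Suv39h2 rose without reaching a fold change of 2, from 33.9 ± 0.6701 to 55.2 ± 2.34. In G9Gl, Ehmt2 fell from 125 ± 9.62 to 54.2 ± 2.82 CPM and Ehmt1 from 103 ± 1.78 to 50.2 ± 1.62. The methods describe frameshift mutations and clones chosen on protein, so these transcripts do not test the labels. This holds also for the higher Suv39h2 transcript in the libraries labelled S1S2, since the methods report the protein as absent.

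In S1S2, 15 members differed from WT, 7 of them higher and 8 lower. The background in this comparison is 8.996% of all genes tested, 4.66% higher and 4.34% lower. In G9Gl, 14 members differed from WT, 6 higher and 8 lower, where 10.2% of all genes were called, 6.77% higher and 3.40% lower. Between the mutants, 17 members differed, 9 higher and 8 lower in G9Gl, against 13.1% of all genes, 7.97% higher and 5.08% lower. The 17 untested members failed the filter on low counts, and a gene that passed it only through the genotype where it was high had to differ. Robo3, Sema4f and Sema6a passed it only through G9Gl, and Slit1 only through S1S2, so their calls are not independent of the filter. The median log2 fold change over the tested members was -0.104 in S1S2, 0.0024 in G9Gl and -0.136 between the mutants, where the medians of all tested genes were -0.0032, -0.0067 and 0.00016. Past the adjusted p alone, without the fold limit, there were 30 members in S1S2, 30 in G9Gl and 36 between the mutants, against 37.9%, 34.99% and 42.6% of all genes. The 2 comparisons with WT share the WT libraries.

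In total 24 members were called in at least 1 of the 3 comparisons, where 17.1% of all tested genes were. Only Robo3 was called higher in both mutants, with a weak call in S1S2 that is described below, and only Slit2 was called lower in both. For 8 members the mutants moved in opposite directions, meaning that both differed from WT with opposite signs at an adjusted p of 0.01 or less and a call between the mutants. The share of all tested genes with this pattern was 3.28%. Slit3, Unc5a, Unc5c, Epha3 and Plxnb1 were lower in S1S2 and higher in G9Gl, and Robo2, Sema5a and Efnb2 were higher in S1S2 and lower in G9Gl. Of these 8, Plxnb1 stayed within a fold change of 2 in both mutants, and Slit3 and Efnb2 did so in G9Gl.

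**Figure D1:**
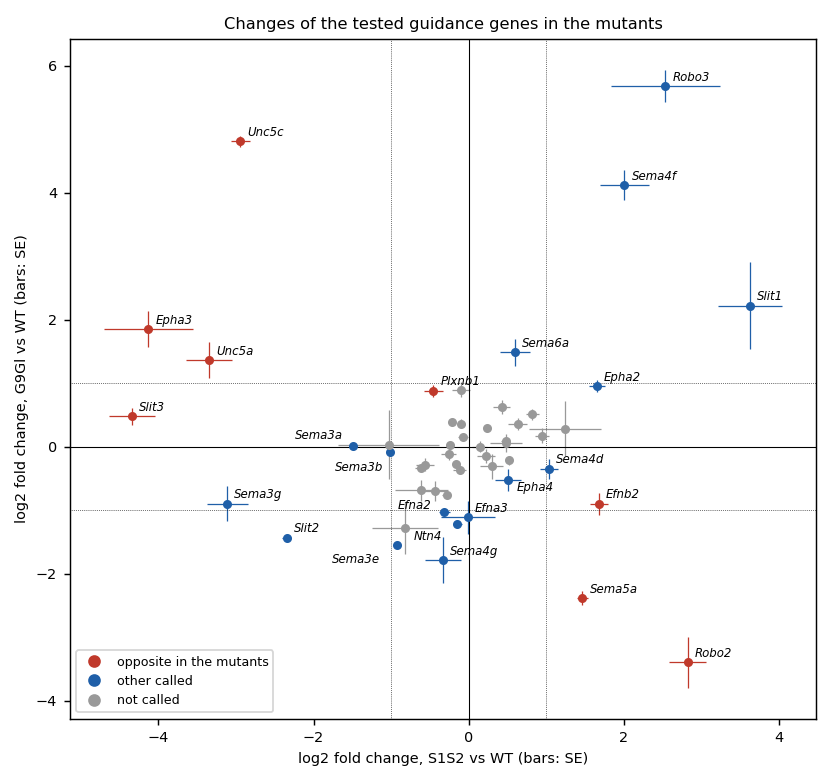
Log2 fold change of the 51 tested guidance genes in S1S2 against WT (horizontal axis) and in G9Gl against WT (vertical axis), with bars for the SE and dotted lines at a fold change of 2. Red points are the 8 genes that moved in opposite directions, blue points are other called genes and grey points were not called. Unc5c lies at -2.94 and 4.81 and Robo2 at 2.82 and -3.39. Both axes use the same WT libraries.

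Per exon length, the level of each family in WT was carried by a few members. Plxnb2, a receptor for class 4 semaphorins, had the highest level of all members, at 51.1 ± 1.805 RPKM in WT, 60.01 ± 0.5804 in S1S2 and 63.1 ± 0.924 in G9Gl. Next in WT, leaving out Unc50, were Sema3c at 25.7 ± 1.43 RPKM, Plxna1 at 23.4 ± 2.41, Ntn1 at 21.7 ± 2.99, Slit2 at 19.5 ± 0.608 and Sema3a at 19.4 ± 0.572, and neighbours in this order differ by less than the sum of their SDs. The highest Unc5 receptor was Unc5b at 15.2 ± 1.85 RPKM, the highest EphB receptor Ephb4 at 16.9 ± 0.865, the highest EphA receptor Epha2 at 11.9 ± 1.23 and the highest ephrin Efna5 at 10.003 ± 1.04. No Robo receptor exceeded 1 RPKM in any genotype, the highest value being 0.432 ± 0.0349 for Robo3 in G9Gl. The WT MEFs thus had abundant transcripts of Slit2 and few of its receptors. In the mutants Slit2 was lower, at 3.84 ± 0.248 RPKM in S1S2 and 7.23 ± 0.343 in G9Gl.

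**Figure D2:**
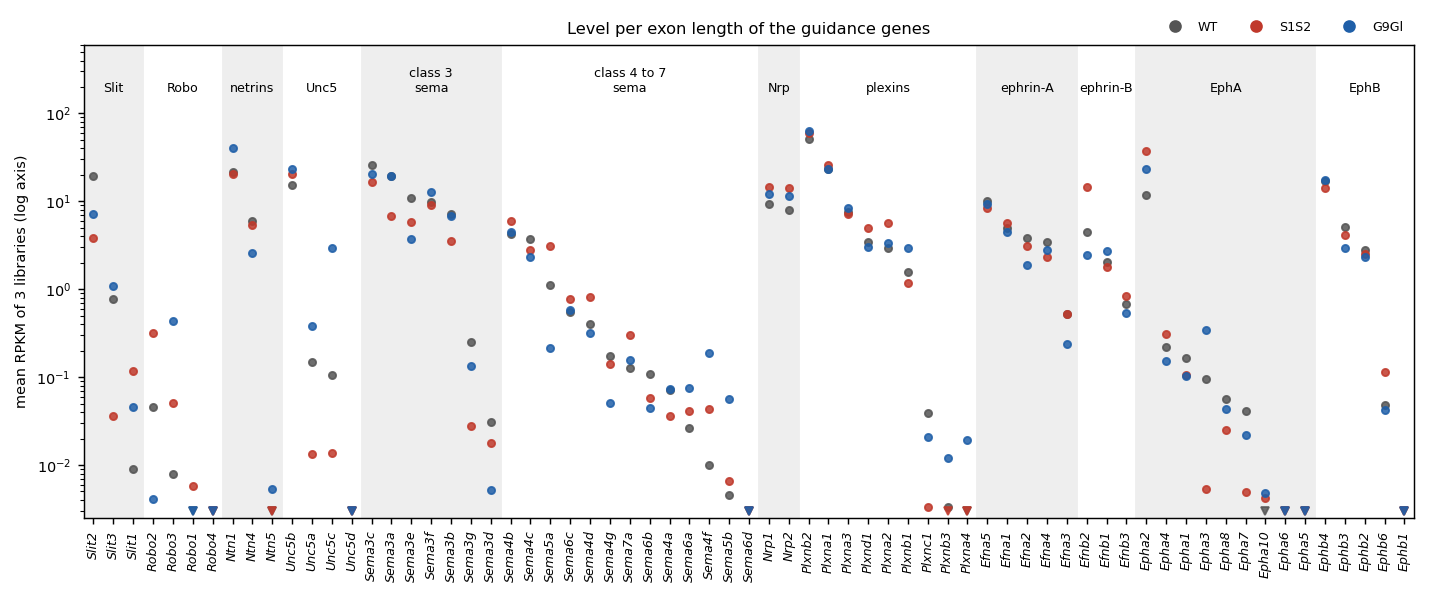
Mean RPKM of 3 libraries (log axis) for 67 guidance genes grouped by family, in WT (grey), S1S2 (red) and G9Gl (blue), with genes ordered by their WT level within a family. Triangles at the lower edge stand for means at or below 0.003 RPKM, zeros included, and Unc50 is left out. Plxnb2 is highest in all 3 genotypes, and the points of Unc5c, Robo2 and Robo3 lie far apart.

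Slit2, a secreted repellent of commissural and motor axons, was lower in both mutants (chromosome 5, 47983138 to 48307733). Its level was 484, 491 and 513 CPM in the WT libraries, 96.2, 91.97 and 104 in S1S2 and 193, 176 and 182 in G9Gl. The genotypes do not overlap, and every S1S2 library lies below every G9Gl library. The log2 fold change was -2.35 (SE 0.059, adjusted p = 7.08e-16) in S1S2 and -1.43 (SE 0.047, adjusted p = 1.60e-13) in G9Gl. Between the mutants it was 0.92 (SE 0.066, adjusted p = 7.77e-11), which did not reach a fold change of 2. Because Slit2 held most of the family's counts, the summed level of the 3 Slits went from 501 ± 14.8 CPM in WT to 98.5 ± 6.08 in S1S2 and 191 ± 8.71 in G9Gl.

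The other Slits did not follow Slit2. Slit3 (chromosome 11, 35121224 to 35708507) was at 5.104, 5.02 and 3.897 CPM in WT, 0.184, 0.328 and 0.141 in S1S2 and 6.59, 6.86 and 6.100 in G9Gl. In S1S2 the 3 libraries held 4, 9 and 3 counts, near the floor of 3 counts, and G9Gl libraries all lay above WT libraries. Its log2 fold change was -4.34 (SE 0.30, adjusted p = 3.06e-10) in S1S2, 0.48 (SE 0.13, adjusted p = 0.0082) in G9Gl and 4.82 (SE 0.27, adjusted p = 2.18e-11) between the mutants. The G9Gl difference was small, and the opposite pattern of Slit3 was lost when any single library of WT or G9Gl was left out, and with DESeq2, thinning or no composition factor. Slit1 was near the floor in WT, with 2, 3 and 0 counts, and reached 18, 21 and 11 in S1S2 and 10, 11 and 2 in G9Gl. The ratio of S1S2 to WT was 13.3 (95% interval 5.34 to 42.8), an interval that covers counting error only, and the adjusted p was 1.72e-04. Slit1 lies on chromosome 19, where the median log2 fold change of all genes was 0.338 in S1S2, and with chromosome medians removed its log2 fold change was 3.29.

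Robo receptors were sparse in WT, and Robo2 and Robo3 differed between the mutants. Robo2, a main Slit receptor of the nervous system, had 27, 28 and 17 counts in the WT libraries, 111, 175 and 101 in S1S2 and 1, 4 and 1 in G9Gl. WT lay between the mutants without overlap. As a log2 fold change, the difference was 2.82 (SE 0.24, adjusted p = 1.63e-08) in S1S2 and -3.39 (SE 0.40, adjusted p = 1.80e-05) in G9Gl, and between the mutants S1S2 exceeded G9Gl by a ratio of 79.6 (95% interval 36.2 to 218). Without G9Gl replicate 2, which held 4 of the 6 counts of that genotype, the log2 fold change in G9Gl was -4.33 and the difference between the mutants went from -6.21 to -7.15. Robo3, a divergent receptor known from axon crossing at the midline, had 1, 3 and 1 counts in WT, 9, 2 and 12 in S1S2 and 92, 80 and 85 in G9Gl. G9Gl stood far above both, by a ratio of 55.4 (95% interval 23.4 to 172) to WT (adjusted p = 1.40e-08).

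The S1S2 call of Robo3 was weak, since 1 S1S2 library overlapped WT. Robo3 passed the filter only through its G9Gl libraries, and with only the WT and S1S2 libraries it was not tested. Against a fold change of 2 (glmTreat) the adjusted p in S1S2 was 0.138, and after thinning it was 0.0217. With the main test it was 0.00749, and it rose above 0.01 without WT replicate 1 (0.0318), WT replicate 3 (0.0233), S1S2 replicate 1 (0.0303), S1S2 replicate 3 (0.0529), G9Gl replicate 2 (0.0103) or G9Gl replicate 3 (0.0107). Without WT replicate 2, which held 3 of the 5 WT counts, the log2 fold changes of Robo3 were 3.21 in S1S2 and 6.36 in G9Gl, and that of Slit1 in S1S2 was 4.31. Robo1 had at most 4 counts in any library and was not tested, and Robo4, an endothelial member, had none.

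Of the 3 netrins in the table, 1 was called, in G9Gl. Ntn4, a netrin of basement membranes that binds laminin (chromosome 10, 93640681 to 93747207), was at 22.97, 21.7 and 22.8 CPM in WT, 21.7, 19.6 and 19.6 in S1S2 and 9.47, 10.1 and 9.39 in G9Gl. Only the G9Gl libraries stood apart, and S1S2 overlapped WT. On the log2 scale the fold change was -1.22 (SE 0.042, adjusted p = 2.64e-10) in G9Gl and -1.07 (SE 0.059, adjusted p = 1.67e-09) against S1S2, while in S1S2 it was -0.15 (SE 0.056, adjusted p = 0.0862). Ntn1, the classical axon attractant, went the other way in G9Gl, from 136 ± 18.8 CPM in WT and 127 ± 3.297 in S1S2 to 254 ± 8.24. That difference, 0.90 (SE 0.12, adjusted p = 8.20e-09) on the log2 scale, was just short of a fold change of 2. Between the mutants it was 0.9991, at the limit, so a call there depends on small shifts, and Ntn1 was called without WT replicate 3. With DESeq2, DESeq2 size factors or a replicate block, 10 members instead of 9 were called higher in G9Gl between the mutants. Ntn5 had a single count in all libraries together, and Ntn3 was not analysed here.

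Unc5 receptors showed the largest difference of all members. Unc5c, a receptor for repulsion by netrin-1 (chromosome 3, 141465216 to 141834924), was at 1.75, 2.08 and 2.16 CPM in WT, 0.276, 0.219 and 0.282 in S1S2 and 55.9, 55.4 and 56.7 in G9Gl. Each S1S2 library held 6 counts, whereas the G9Gl libraries held 1595, 1543 and 1738. By edgeR, the log2 fold change was -2.94 (SE 0.13, adjusted p = 6.21e-09) in S1S2, 4.81 (SE 0.09, adjusted p = 1.58e-17) in G9Gl and 7.75 (SE 0.092, adjusted p = 4.06e-18) between the mutants. In G9Gl this gene went from 0.104 ± 0.0113 RPKM in WT to 2.93 ± 0.0343, still below Unc5b.

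Unc5a showed the same order at lower counts, with 22, 24 and 12 in WT, 1, 2 and 1 in S1S2 and 47, 45 and 47 in G9Gl. WT exceeded S1S2 by a ratio of 10.9 (95% interval 4.03 to 41.3) and G9Gl exceeded S1S2 by 28.2 (95% interval 10.8 to 105). The log2 fold change in G9Gl was 1.36 (SE 0.28, adjusted p = 3.77e-04). Unc5b, the member with the most counts, was not called, and its log2 fold changes were 0.42 (SE 0.11, adjusted p = 4.72e-05) in S1S2 and 0.62 (SE 0.11, adjusted p = 4.76e-07) in G9Gl. Unc5d had no counts.

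Of 7 class 3 semaphorins, 6 were tested, and 3 were called lower in S1S2 and none higher, where 4.34% of all genes were lower and 4.66% higher. Their summed level was 641 ± 18.98 CPM in WT, 333 ± 4.36 in S1S2 and 551 ± 6.92 in G9Gl. Sema3a, which collapses growth cones through Nrp1 (chromosome 5, 13125414 to 13602565), was at 269, 261 and 277 CPM in WT, 98.96, 96.1 and 90.8 in S1S2 and 274, 268 and 274 in G9Gl. The WT and G9Gl libraries overlapped, and every S1S2 library was below 100 CPM. The log2 fold change was -1.498 (SE 0.044, adjusted p = 2.65e-14) in S1S2 and 0.015 (SE 0.027, adjusted p = 0.791) in G9Gl.

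Sema3b, a ligand of Nrp1 and Nrp2 (chromosome 9, 107597674 to 107609229), was at 33.8, 34.99 and 34.9 CPM in WT, 17.4, 16.2 and 17.6 in S1S2 and 33.6, 32.8 and 31.02 in G9Gl. Its S1S2 difference, -1.02 (SE 0.042, adjusted p = 4.02e-10) on the log2 scale, lay just past the fold limit, and was -0.985 without S1S2 replicate 2 and -0.949 with chromosome medians removed. Sema3g, an Nrp2 ligand with few counts, held 40, 24 and 43 in WT, 2, 4 and 3 in S1S2 and 21, 17 and 15 in G9Gl, and WT exceeded S1S2 by a ratio of 8.93 (95% interval 4.53 to 20.1). Sema3c, the class 3 member with the highest level per length in WT, differed in S1S2 by -0.62 (SE 0.073, adjusted p = 3.32e-08) and was not called.

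Sema3e (chromosome 5, 14025276 to 14256689) was the only tested class 3 member called in G9Gl, where 10.2% of all genes were called. It differs from its relatives in binding Plxnd1 without a neuropilin. Its level was 104, 101 and 100.01 CPM in WT, 51.8, 54.1 and 54.8 in S1S2 and 33.6, 35.3 and 35.2 in G9Gl, and no library of one genotype overlapped another. As a log2 fold change, the difference was -1.55 (SE 0.03, adjusted p = 3.12e-14) in G9Gl and -0.93 (SE 0.031, adjusted p = 3.66e-11) in S1S2, the latter short of a fold change of 2. Its receptor Plxnd1 had log2 fold changes of 0.51 (SE 0.051, adjusted p = 4.56e-06) in S1S2 and -0.22 (SE 0.067, adjusted p = 0.0129) in G9Gl. Sema3f, which acts through Nrp2, was 51.2 ± 0.926 CPM in WT, 47.7 ± 1.77 in S1S2 and 65.99 ± 5.86 in G9Gl, and was not called.

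Both neuropilins were above WT in both mutants by less than a fold change of 2. Nrp1, co-receptor for Sema3a and VEGF-A, was at 91.05 ± 9.77 CPM in WT, 141 ± 13.6 in S1S2 and 117 ± 3.18 in G9Gl. The log2 fold changes of Nrp1 were 0.63 (SE 0.12, adjusted p = 1.39e-06) and 0.36 (SE 0.095, adjusted p = 4.30e-04) and those of Nrp2 were 0.82 (SE 0.089, adjusted p = 2.92e-09) and 0.51 (SE 0.089, adjusted p = 9.47e-07), in S1S2 and G9Gl.

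Among membrane-bound semaphorins, Sema5a moved in opposite directions (chromosome 15, 32244810 to 32696341). It encodes a transmembrane semaphorin with thrombospondin repeats. The libraries held 21.7, 21.4 and 19.2 CPM in WT, 59.5, 58.2 and 54.3 in S1S2 and 3.72, 4.56 and 3.69 in G9Gl. WT lay between the mutants with no overlap. On the log2 scale the fold change was 1.46 (SE 0.068, adjusted p = 1.70e-11) in S1S2, -2.39 (SE 0.11, adjusted p = 5.85e-13) in G9Gl and -3.85 (SE 0.11, adjusted p = 3.02e-16) between the mutants. Sema4d, the ligand of Plxnb1 (chromosome 13, 51685529 to 51793747), was at 3.47, 2.64 and 3.06 CPM in WT, 6.43, 6.19 and 6.204 in S1S2 and 2.63, 2.55 and 2.06 in G9Gl. Its S1S2 difference, 1.03 (SE 0.11, adjusted p = 9.82e-06) on the log2 scale, was 0.938 without WT replicate 2 and 0.979 after thinning, and between the mutants it was -1.38 (SE 0.11, adjusted p = 3.79e-07).

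The remaining called semaphorins had low counts. Sema4f held 1, 1 and 3 counts in WT, 7, 5 and 4 in S1S2 and 27, 29 and 31 in G9Gl, a ratio of G9Gl to WT of 18.8 (95% interval 7.74 to 59.2). Without WT replicate 3 its log2 fold change in G9Gl was 4.79, against 4.12 with all libraries. Sema4g held 59, 34 and 50 in WT, 22, 33 and 30 in S1S2 and 17, 13 and 8 in G9Gl, and was lower in G9Gl at -1.79 (SE 0.36, adjusted p = 1.08e-04). It lies on chromosome 19, and its difference between the mutants, -1.45 (SE 0.32, adjusted p = 0.00115), was -0.937 with chromosome medians removed. Sema6a rose in G9Gl by 1.49 (SE 0.21, adjusted p = 0.00175), from 9, 8 and 5 counts in WT to 16, 20 and 22, and the adjusted p was 0.0121 without WT replicate 3 and 0.0105 in DESeq2.

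Of 9 plexins 6 were tested, and none was called against WT, where 8.996% of all genes were called in S1S2 and 10.2% in G9Gl. Only Plxnb1 (chromosome 9, 109095389 to 109119917) was called between the mutants, where 13.1% of all genes were. It was at 16.1, 16.2 and 13.4 CPM in WT, 12.2, 9.94 and 11.3 in S1S2 and 27.7, 28.9 and 27.6 in G9Gl. All S1S2 libraries lay below and all G9Gl libraries above the WT libraries. By edgeR, the log2 fold change was -0.46 (SE 0.12, adjusted p = 4.80e-04) in S1S2, 0.88 (SE 0.09, adjusted p = 9.11e-08) in G9Gl and 1.34 (SE 0.087, adjusted p = 6.77e-10) between the mutants. Its ligand Sema4d was higher in S1S2 than in G9Gl, the reverse of Plxnb1. A gene on the other strand overlaps 2.7% of the Plxnb1 exons, and whether strand was used in counting is not given in the sources used here. Plxna2, a partner of neuropilins, reached 0.94 in S1S2 (SE 0.087, adjusted p = 1.16e-08) and was not called, and Plxna1 and Plxna3 had log2 fold changes between -0.071 and 0.15 in the mutants.

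**Figure D3:**
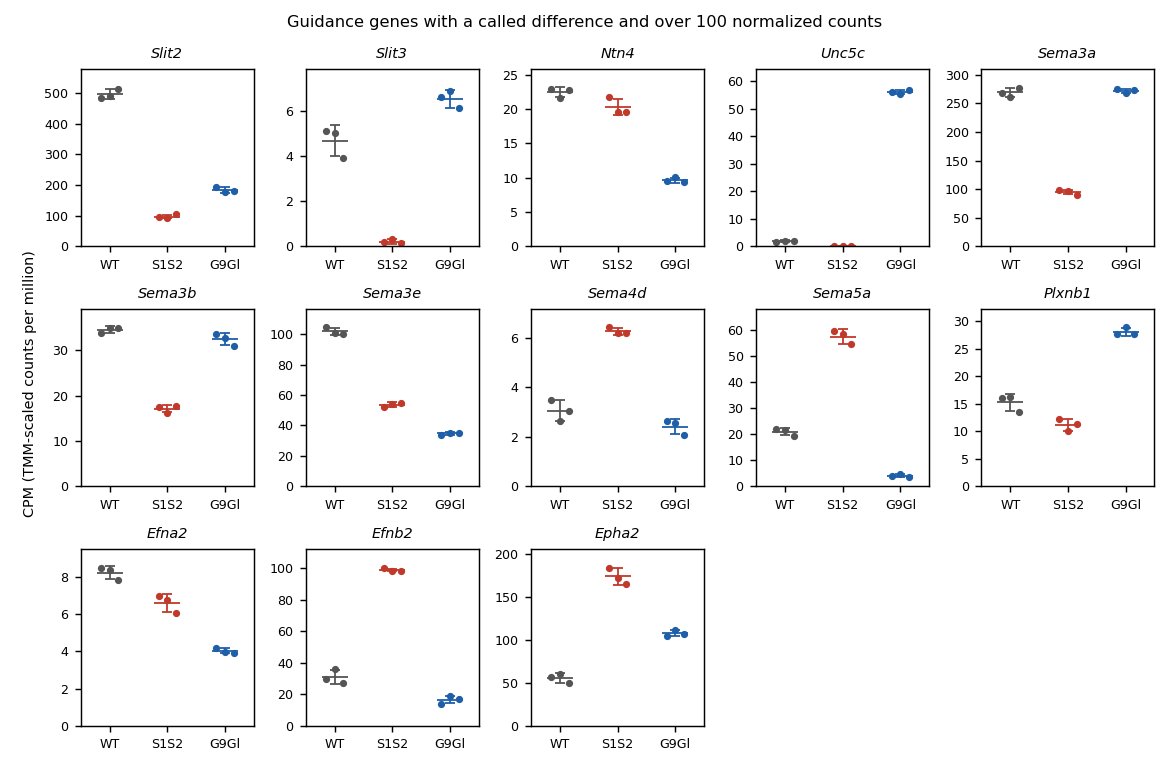
CPM in each library (points) with mean and SD (bars) for the 13 called guidance genes with a mean normalized count over 100, on axes that start at 0, in WT (grey), S1S2 (red) and G9Gl (blue). Slit2 is lower in both mutants, Sema3a and Sema3b are lower in S1S2, and Sema5a, Efnb2, Unc5c, Slit3 and Plxnb1 place WT between the mutants.

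Efnb2, the transmembrane ligand of Ephb4 and an arterial marker (chromosome 8, 8617434 to 8661242), was the ephrin with the largest difference. It was at 29.8, 35.9 and 27.2 CPM in WT, 99.8, 98.4 and 98.4 in S1S2 and 13.99, 18.7 and 17.03 in G9Gl. WT lay between the mutants and the libraries did not overlap. The log2 fold change was 1.68 (SE 0.12, adjusted p = 6.70e-11) in S1S2, -0.90 (SE 0.17, adjusted p = 6.61e-07) in G9Gl and -2.58 (SE 0.12, adjusted p = 2.57e-13) between the mutants. The other ephrin-B ligands, Efnb1 and Efnb3, were not called in any comparison. Ephb4, the receptor of Efnb2, was at 78.4 ± 4.01 CPM in WT, 66.1 ± 2.16 in S1S2 and 80.1 ± 0.124 in G9Gl. Of the 5 EphB receptors 3 were tested and none was called, where 8.996%, 10.2% and 13.1% of all genes were called in the 3 comparisons. The largest difference among the 3 tested was that of Ephb3 in G9Gl, at -0.77 (SE 0.049, adjusted p = 1.47e-08).

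Among ephrin-A ligands, 2 of 5 were lower in G9Gl, where 3.40% of all genes were, and none was called in S1S2, where 8.996% were. Efna2 (chromosome 10, 80179482 to 80190010) was at 8.49, 8.39 and 7.83 CPM in WT, 6.98, 6.78 and 6.06 in S1S2 and 4.17, 3.98 and 3.91 in G9Gl, so that all 3 genotypes stood apart. Its log2 fold change was -1.03 (SE 0.045, adjusted p = 3.42e-07) in G9Gl and -0.32 (SE 0.071, adjusted p = 0.0167) in S1S2. Efna3 held 31, 51 and 37 counts in WT, 24, 26 and 38 in S1S2 and 14, 19 and 18 in G9Gl, and was called lower in G9Gl at -1.11 (SE 0.26, adjusted p = 0.00691). That call was lost without WT replicate 2 (log2 fold change -0.865) and without any single G9Gl library (adjusted p of 0.0286, 0.0127 and 0.0241). It was also lost with glmTreat and after thinning (log2 fold change -0.983, adjusted p = 0.0244). The Efna3 call between the mutants, at -1.097, was lost without S1S2 replicate 1 or 3 or any single G9Gl library, and it was -0.794 without S1S2 replicate 3. Further settings that lost it were glmTreat, thinning (adjusted p = 0.0115) and removal of chromosome medians (-0.978). A gene on the other strand overlaps 14.1% of the Efna3 exons. Efna5 and Efna1, which had the highest levels per length, were not called, and the largest of their log2 differences was -0.36, for Efna1 between the mutants.

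Epha2, a receptor of ephrin-A1 (chromosome 4, 141301240 to 141329384), rose in S1S2. It was at 56.7, 60.7 and 49.3 CPM in WT, 185, 173 and 165 in S1S2 and 105, 112 and 107 in G9Gl. Both mutants lay above WT, and S1S2 above G9Gl, without overlap. As a log2 fold change, the difference was 1.65 (SE 0.10, adjusted p = 1.10e-12) in S1S2 and 0.96 (SE 0.091, adjusted p = 1.03e-09) in G9Gl, the latter short of a fold change of 2. Its ligand Efna1 was at 9.01 ± 1.12 CPM in WT, 10.5 ± 0.642 in S1S2 and 8.14 ± 0.163 in G9Gl.

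Epha3, a receptor of ephrin-A5, was found at low counts and moved in opposite directions. It held 29, 31 and 17 counts in WT, 3, 0 and 0 in S1S2 and 92, 68 and 100 in G9Gl. WT exceeded S1S2 by a ratio of 19.3 (95% interval 6.36 to 95.6) and G9Gl exceeded S1S2 by 70.2 (95% interval 23.8 to 343), and the log2 fold change in G9Gl was 1.86 (SE 0.28, adjusted p = 2.32e-05). S1S2 replicate 1 held all 3 counts of that genotype, and without it the fitted log2 fold change in S1S2 was -7.57 and that between the mutants 9.42, values that rest on a genotype at 0. Without S1S2 replicate 2 they were -3.48 and 5.34. Epha4, which binds ephrins of both classes, was called between the mutants only, at -1.03 (SE 0.23, adjusted p = 5.30e-04), from 2.66, 2.805 and 1.97 CPM in S1S2 to 0.947, 1.44 and 1.27 in G9Gl. It was -0.988 without S1S2 replicate 1, -0.924 without S1S2 replicate 2, -0.884 without G9Gl replicate 1, -0.888 with chromosome medians removed and -0.938 after thinning.

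**Figure D4:**
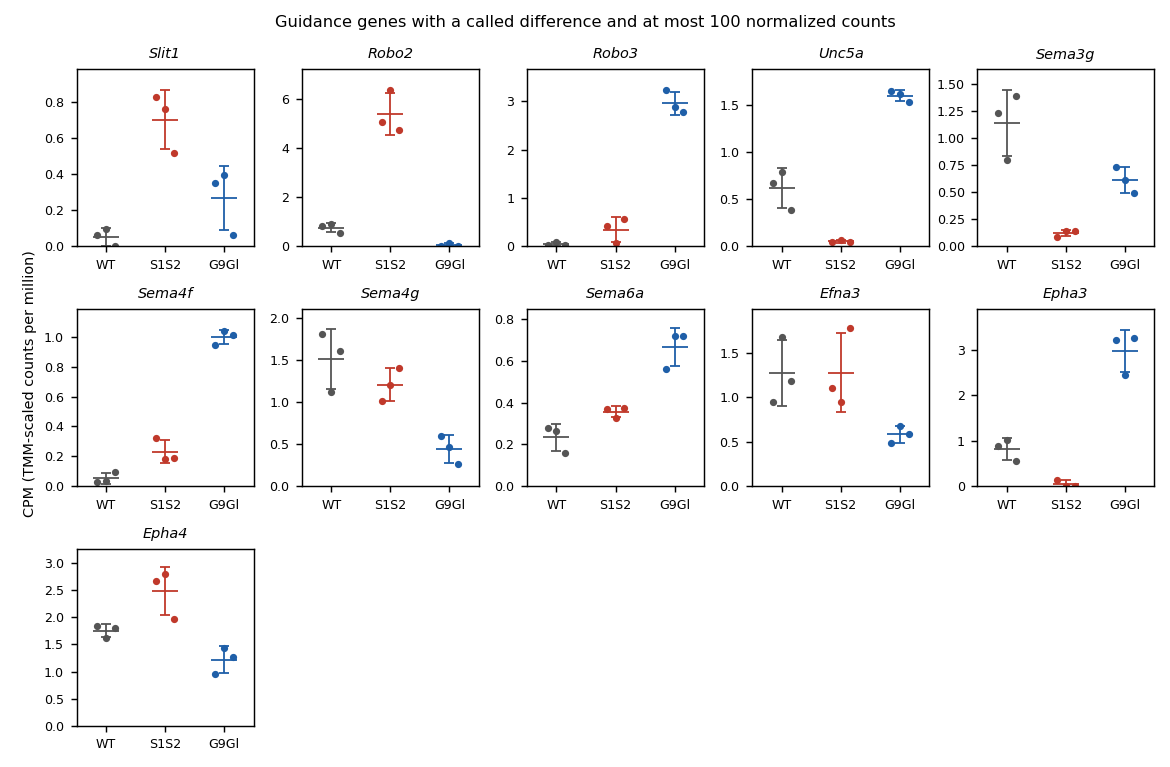
CPM in each library (points) with mean and SD (bars) for the 11 called guidance genes with a mean normalized count of at most 100, on axes that start at 0, in WT (grey), S1S2 (red) and G9Gl (blue). Robo2 is high in S1S2, Robo3, Unc5a, Epha3 and Sema4f are high in G9Gl, and the libraries of Efna3 in WT and S1S2 overlap.

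Of the 17 untested members, 4 had no counts and the others had at most 17 counts in any library. When the filter on low counts was removed, 4 of them were called in at least 1 comparison, in a fit of 26488 genes that called 6.27% of them in S1S2, 7.16% in G9Gl and 9.32% between the mutants. Epha7 was lower in S1S2, with 15, 13 and 10 counts in WT and 0, 4 and 0 in S1S2, and Plxnc1 was likewise lower, with 12, 5 and 14 and 0, 1 and 1. Plxna4, with 0 counts in the 6 other libraries, held 7, 6 and 11 in G9Gl, and Sema5b held 7, 13 and 15 in G9Gl against at most 3 in any other library.

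Other genes of guidance signalling were taken from a list of 26 co-receptors and cues, of which 17 were tested. In S1S2, 2 were called higher and 3 lower, in G9Gl 3 higher and 5 lower, and between the mutants 4 higher and 3 lower in G9Gl. The shares of tested genes were 29.4%, 47.1% and 41.2%, beside the backgrounds of 8.996%, 10.2% and 13.1%. The median log2 fold changes were 0.0384, -0.0086 and -0.116. Flrt3, a membrane protein that binds Unc5 receptors and Robo1, fell from 41.4 ± 1.38 CPM in WT to 0.866 ± 0.308 in S1S2 and 10.99 ± 1.34 in G9Gl, with log2 fold changes of -5.53 (SE 0.27, adjusted p = 4.60e-15) and -1.91 (SE 0.10, adjusted p = 1.19e-11). Its relative Flrt2 rose in G9Gl from 24.6 ± 2.05 to 59.7 ± 2.31 CPM, at 1.28 (SE 0.078, adjusted p = 3.20e-11), and Flrt1 fell there from 6.93 ± 0.706 to 1.503 ± 0.3197, at -2.201 (SE 0.19, adjusted p = 1.23e-09). L1cam, an adhesion molecule that partners with Nrp1, rose from 0.894 ± 0.301 CPM in WT to 2.22 ± 0.252 in S1S2 and 20.2 ± 0.683 in G9Gl. Nrcam, of the same family, rose to 3.57 ± 0.3898 CPM in S1S2 from 0.0102 ± 0.0178 in WT. The further called genes of the list were Rgma and Lrrc4, lower in both mutants, Dscam, lower in G9Gl, and Lrrc4c, higher in G9Gl.

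The labelled cell type was checked against 11 fibroblast markers, all of which were tested and present. Their summed level was 9982 to 11479 CPM in WT, 7436 to 7503 in S1S2 and 7912 to 8767 in G9Gl. In S1S2, 6 of the 11 were called lower, namely Col1a2, Col3a1, Thy1, Pdgfra, Pdgfrb and Prrx1, where 4.34% of all genes were lower, and in G9Gl Pdgfra and Pdgfrb were lower and Thy1 was higher. Between the mutants 5 of the 11 were higher in G9Gl, against 7.97% of all genes. By adjusted p alone, without the fold limit, 8 of the 11 were lower and 1 was higher in S1S2. Col1a2, among those lower, fell from 2394 ± 90.9 to 395 ± 11.9 CPM there. Of 8 endothelial markers 3 were tested, Cldn5 and Emcn were at 0, and the summed level was 0.966 to 1.11 CPM in WT, 2.44 to 2.66 in S1S2 and 1.44 to 3.33 in G9Gl, where Kdr was called higher in S1S2 and Cdh5 in G9Gl. Of 8 neuron markers 3 were tested, Rbfox3 was at 0, and the sums were 25.2 to 27.2, 38.1 to 42.6 and 22.0 to 29.5 CPM. Tubb3 held most of each of these sums and was not called, whereas Map2 was called lower in S1S2 and Stmn2 higher in G9Gl. Of 6 Schwann and neural crest markers 2 were tested, Foxd3 was at 0, and the sums were 10.6 to 12.3, 7.14 to 8.18 and 10.7 to 11.4 CPM. Of 6 epithelial markers only Krt8 was tested and was called higher in S1S2, Krt5 was at 0, and the sums were 0.297 to 0.580, 5.06 to 5.65 and 0.359 to 0.666 CPM. Myeloid and lymphoid markers summed to 4.30 to 4.46, 3.24 to 4.04 and 4.63 to 4.89 CPM with Adgre1 and Cd3e at 0, and muscle markers to 2.86 to 3.25, 2.70 to 3.81 and 9.93 to 11.4 CPM with Myod1 at 0 and Des and Acta1 called higher in G9Gl. The part of these marker differences in the guidance genes was not tested, and in bulk RNA fewer cells of a type and less RNA per cell cannot be told apart.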

How the data were processed

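RNA-seq of total RNA from 3 WT, 3 S1S2 and 3 G9Gl MEF libraries was analysed. The table deposited by the authors holds read counts per gene (Ensembl identifiers), as whole numbers with no normalization. According to the submitters' processing notes the reads were aligned to GRCm38 with STAR 2.5.2b, and according to the study's methods adapters were trimmed with cutadapt and genes were counted with TEtranscripts, after alignment with the settings that tool recommends. The annotation release and the use of strand in counting are not given in the sources used here, so counts of overlapping, antisense and near-identical genes are uncertain. Repeats were not analysed here.

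Symbols and positions came from GENCODE M21 and promoter windows from RefSeq. Members were genes whose full symbol matched the family names followed by a number or letter. The members and the gene lists were chosen with earlier results of these data known. Counts were fitted in R 4.3.3 with edgeR 4.0.16 (filterByExpr, TMM, glmQLFit and glmQLFTest) over all 9 libraries, and the 3 contrasts between genotypes were tested with Benjamini-Hochberg adjustment over 15540 genes. The common biological coefficient of variation was 5.36%. The SE of a log2 fold change came from the replicate spread of log2 CPM with a prior count of 2. The script was tested on simulated data. Ratios for genes with few counts were computed from summed counts, with exact (Clopper-Pearson) 95% intervals. Reads carry no molecular identifiers, so intervals and the floor of 3 counts (0.0922 to 0.141 CPM) cover counting error only. Replicates differed by more than counting noise (chi-square per degree of freedom 2.68 to 25.6), and none was counted as a duplicate.

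Called members with a mean normalized count over 100 were given with every library's value. Other called members were given by counts or CPM. Uncalled members were given by ranges and counts, with values for the highest of each family and the partners of called members. Of the lists of other guidance, effector and VEGF genes only called genes were named, and of the marker lists also genes at 0 and Tubb3, which was chosen after its values were seen. With chromosome medians removed the p-values were kept as they were, so that only the fold limit could end a call. Alternatives were DESeq2 1.42.0, DESeq2 size factors, no composition factor, no filter, a mean normalized count over 100, at least 10 counts in every library, no fold limit with an adjusted p up to 0.05, glmTreat against a fold change of 2, only the libraries compared, a replicate block, thinning to 21319778 counts, removal of chromosome medians, a wider reading of the symbols, and leaving out each library.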

Additional observations from a re-analysis of the deposited data

Results flagged for a closer look

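For 8 guidance genes the test of G9Gl against S1S2 gave a call and the mutants lay on opposite sides of WT. The side of WT rests on each mutant's own test against WT, not on this one. The log2 differences, G9Gl minus S1S2, were 7.75 for Unc5c, 5.99 for Epha3, 4.82 for Slit3, 4.71 for Unc5a and 1.34 for Plxnb1, all higher in G9Gl. They were -6.21 for Robo2, -3.85 for Sema5a and -2.58 for Efnb2, all higher in S1S2. The values for Epha3, Unc5a and Robo2 rest on at most 6 counts in the lower mutant, and without G9Gl replicate 2 that of Robo2 was -7.15. When each difference was tested against a fold change of 2 (glmTreat), the opposite pattern remained for Unc5c, Robo2 and Sema5a and was lost for Efnb2, Epha3, Plxnb1, Slit3 and Unc5a. That of Slit3 was also lost without any single WT or G9Gl library. Groups of 3 libraries were not examined for single outlying samples.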

How the results depend on the processing

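Counts of called members are given for S1S2 and for G9Gl against WT, for the mutants against each other and, last, for members opposite in the mutants, which were 15, 14, 17 and 8. They were 7, 6, 9 and 3 with at least 10 counts in every library (5.58%, 5.23% and 7.38% of all genes in the 3 comparisons), and 9, 6, 9 and 5 with a mean normalized count over 100 (5.53%, 5.33% and 7.41%), both of which remove genes from the test. At an adjusted p of at most 0.05 with no fold limit they were 36, 35, 42 and 9, where 48.9%, 45.9% and 53.3% of all genes passed. With glmTreat they were 12, 7, 10 and 3, against 4.73%, 6.72% and 8.63%. Leaving out each library in turn gave 14 to 17, 13 to 16, 16 to 19 and 7 to 8. The other alternatives gave 12 to 18, 13 to 17, 14 to 20 and 7 to 8, and the wider reading of the symbols added 12 genes of which none was called. With the replicate number as a block the counts were 16, 14, 18 and 8. Same-numbered libraries had correlations of -0.0686 to 0.124 in their deviations from the genotype means, so the numbers were not taken to pair the samples. Among the calls of the 13 called members with a mean normalized count over 100, some were lost under an alternative that still tested the gene. These were Sema3b and Sema4d in S1S2 (glmTreat and thinning, where they were -0.998 and 0.979, and the settings given above), and, with glmTreat, Efna2 and Ntn4 in G9Gl and Ntn4 and Sema4d between the mutants. Alternatives in scaling moved the median of all genes by less than 0.1 on the log2 scale. Depth limits the members near the floor most in S1S2, which has the smallest libraries.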

Other observations

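Effectors that act below these receptors in the cell were counted in a list of 59 genes, of which 55 were tested. In S1S2, 5 were called higher and 3 lower (14.5% of those tested, against 8.996% of all genes). In G9Gl, 1 was higher and 1 lower (3.64%, against 10.2%), and between the mutants 1 was higher and 5 lower in G9Gl (10.9%, against 13.1%). Enah, an actin regulator that binds Robo receptors, fell in G9Gl from 87.2 ± 0.186 CPM in WT to 17.6 ± 0.678, at -2.31 (SE 0.032, adjusted p = 1.69e-16), and was at 110.5 ± 0.0378 in S1S2. Srgap3, a GTPase-activating protein of the Slit and Robo pathway, rose in both mutants, from 3.08 ± 0.452 CPM to 6.65 ± 0.629 in S1S2 and 13.1 ± 0.925 in G9Gl. Ngef (ephexin), an exchange factor that binds EphA4, rose in S1S2 from 1.31 ± 0.295 to 6.36 ± 0.516 CPM, and Chn1, a Rac GTPase-activating protein below EphA4, rose there from 0.956 ± 0.238 to 6.08 ± 0.742. Rnd1, a GTPase that binds plexins, and Vav3, an exchange factor of Eph signalling, also rose in S1S2, by 1.11 and 1.497 on the log2 scale. Fes, a kinase in Sema3a signalling, fell in S1S2 by 1.78 on the log2 scale, with Grb10 and Nedd9 at -1.01 and -1.03. Farp2, a further exchange factor, was called between the mutants only, just at the fold limit and lower in G9Gl.

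VEGF ligands and receptors, which share the neuropilins with class 3 semaphorins, were counted in a list of 8 genes, all tested. In S1S2, 2 were called higher and 2 lower (50%, against 8.996% of all genes), in G9Gl 1 was higher (12.5%, against 10.2%), and between the mutants Vegfa and Vegfc were higher and Kdr lower in G9Gl (37.5%, against 13.1%). In S1S2, Flt1 fell from 37.7 ± 2.84 CPM in WT to 13.7 ± 1.18, at -1.46 (SE 0.10, adjusted p = 8.54e-11). Vegfa was at 66.03 ± 10.7 CPM in WT and 32.99 ± 9.11 in S1S2, at -1.01 (SE 0.26, adjusted p = 1.63e-05). Kdr and Flt4 rose in S1S2 from 0.0215 ± 0.0372 and 0.353 ± 0.0665 CPM to 1.22 ± 0.1801 and 1.03 ± 0.264. In G9Gl only Vegfc was called, rising from 2.02 ± 0.482 to 6.27 ± 0.478 CPM, at 1.63 (SE 0.19, adjusted p = 7.44e-07).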
